A study of Drosophila melanogaster with 4 samples.

Results

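The genes described here encode the machinery of protein synthesis in the cytosol, namely the proteins of the ribosome's large and small subunits, the factors of translation initiation (eIF) and elongation (eEF) and the aminoacyl-tRNA synthetases. A gene was taken as a member if its current symbol began with RpL or RpS and a number (or with RpLP), with eIF or with eEF, or named a synthetase by a 3-letter amino acid code and RS, and if it had values on at least 3 arrays. Of 2406 genes with values on at least 3 arrays, 32 were members: 12 of the large subunit, 4 of the small subunit, 15 factors and 1 synthetase. The arrays were 4 two-colour cDNA slides (NF-NF), on each of which amplified antisense RNA from heads of untreated flies in Cy5 was hybridized against that of other untreated flies in Cy3. All flies were unmated Oregon-R males, 3-4 days old and raised on normal food (NF), and heads of flies from 4 vials of 30 were pooled for each RNA sample. Flies stayed 12 h in the treatment vessel, apart from the Cy3 flies of replicate 1, for which the labels state 6 h. No treatment separated the pools of a slide, and the arrays served as the untreated control of a study of pentylenetetrazole, a convulsant drug, in flies.

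A ribosome reads messenger RNA in its small subunit and joins amino acids in its large subunit, and each subunit holds a single copy of most of its proteins. Initiation begins when the eIF4 factors bind the capped end of the message and open its structure, eIF3 holds the small subunit, and eIF2 brings the initiator tRNA and is recharged with GTP by eIF2B. Elongation factors then deliver charged tRNAs, which synthetases have loaded. Transcripts of ribosomal proteins are among the most abundant in most animal cells.

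The value of a gene is its log2 ratio of the Cy5 pool over the Cy3 pool, with the median of all clones on that array subtracted, so that 0 stands for the middle of the array. A ratio carries no expression level, and levels were not compared between genes. The array medians before that step were 0.14, 0.00, 0.08 and -0.69 on replicates 1 to 4, and replicate 4 stood apart with values for 8.1% of spots against 28.8% to 30.5% on the others. In bulk heads a lower share of a cell type and less of a transcript in each cell cannot be told apart. The study's methods say that slides within the set of 4 were dye-swapped without saying which. They also do not state whether the deposited ratios were turned for the swaps. A positive value is therefore read as a higher signal in the Cy5 channel of the labels. Of 15 photoreceptor markers, 5 had values on at least 3 arrays, and so did 4 of 12 neuronal and 3 of 8 glial ones.

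The share of genes that could be measured differed between the classes. The slide tables held clones of 67 genes of the rule, and 35 of these had no value on any array, so each gene had values on at least 3 arrays or on none. Of 15 large subunit genes with a clone 12 were measured, against 4 of 8 small subunit genes, 15 of 30 factors and 1 of 14 synthetases. Per clone, 47.2% of those of ribosomal proteins, 50% of those of factors and 6.25% of those of synthetases kept values on at least 3 arrays, against 33.8% of all 7558 annotated clones. Among the unmeasured were RpLP1, a stalk protein of the large subunit, RpS20, eIF6, which keeps the subunits apart, eEF1alpha2, which carries charged tRNAs to the ribosome, and the synthetase genes SerRS, ThrRS and IleRS. The authors had removed spots with saturated pixels as well as dim ones, and which filter took a clone away was not tested. RpL32, known as rp49 and widely used as a reference transcript in flies, had 10 clones, of which 1 had values on all 4 arrays and was used. A pair of its other clones had a value on replicate 3 alone, at -0.27 and -0.28, close to the -0.27 of the clone used.

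**Figure D1:**
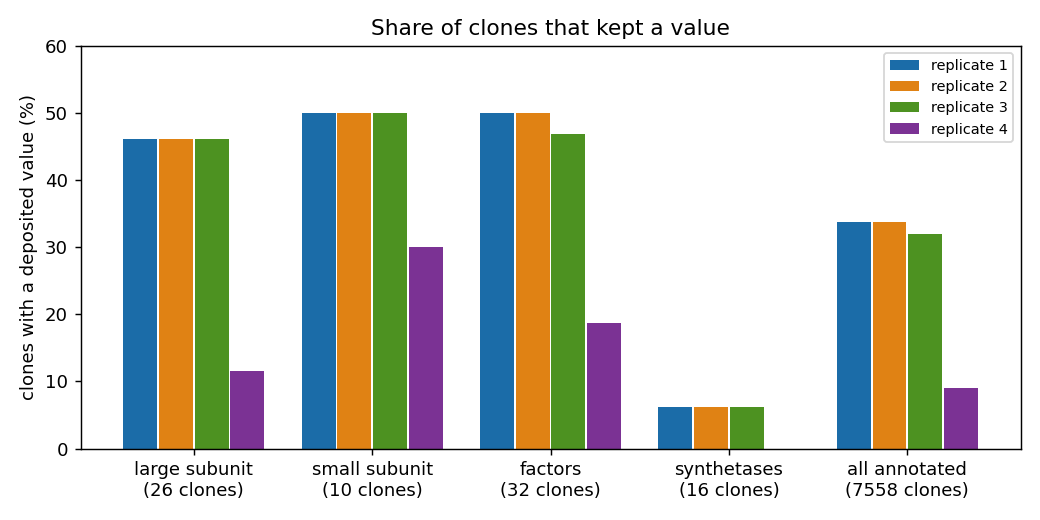
Share of clones (%, y axis) with a deposited value on each of the 4 arrays (bars, one colour per replicate), for the member classes and for all annotated clones. On replicates 1 to 3 the classes other than synthetases kept between 46.2% and 50% of their clones, synthetases kept 6.25%, and on replicate 4 every class was lower.

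With the dyes as labelled, ribosomal protein genes lay on the high side of the arrays, and factors were below 0 somewhat more often than all genes. These directions depend on which slides were dye-swapped. The mean log2 ratio was above 0 for 15 of 16 ribosomal protein genes, against 48.5% of all 2406 genes, and their median was 0.18 against -0.01 over all genes. It was below 0 for 10 of 15 factor genes, against 51.5% of all genes, with a median of -0.17. With replicates 2 and 3, 2 and 4, or 3 and 4 turned in sign for the unnamed dye swaps, 7, 10 and 7 of 16 ribosomal protein genes were above 0, and their medians were -0.029, 0.063 and -0.0023. The factor medians were then -0.027, -0.080 and -0.0042. Turning the complementary pair (the arrays not turned) instead gives each of these medians with the opposite sign. Without replicate 1, the array with unequal vessel times, 16 of 16 ribosomal protein genes were above 0 and 11 of 15 factor genes below, but the factor median was -0.063, and without replicate 3 it was -0.052. The single synthetase, AlaRS, which charges tRNA with alanine, was at 0.02 ± 0.08 (SD, n = 3). No member passed the test of a gene's log2 ratio against 0 (limma, Benjamini-Hochberg adjusted p over all genes). The lowest adjusted p of a member was 0.0817 in limma, and 0 of 2406 genes passed (0.0%). At an unadjusted limma p under 0.05 there were 5 higher ribosomal protein genes of 16, against 13.3% of all genes, and 3 lower factor genes of 15, against 17.1%. Without replicate 4, limma called 33 higher genes (1.37%) and 182 lower genes (7.56%), of which 0 were members. Values are therefore given without a call throughout.

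**Figure D2:**
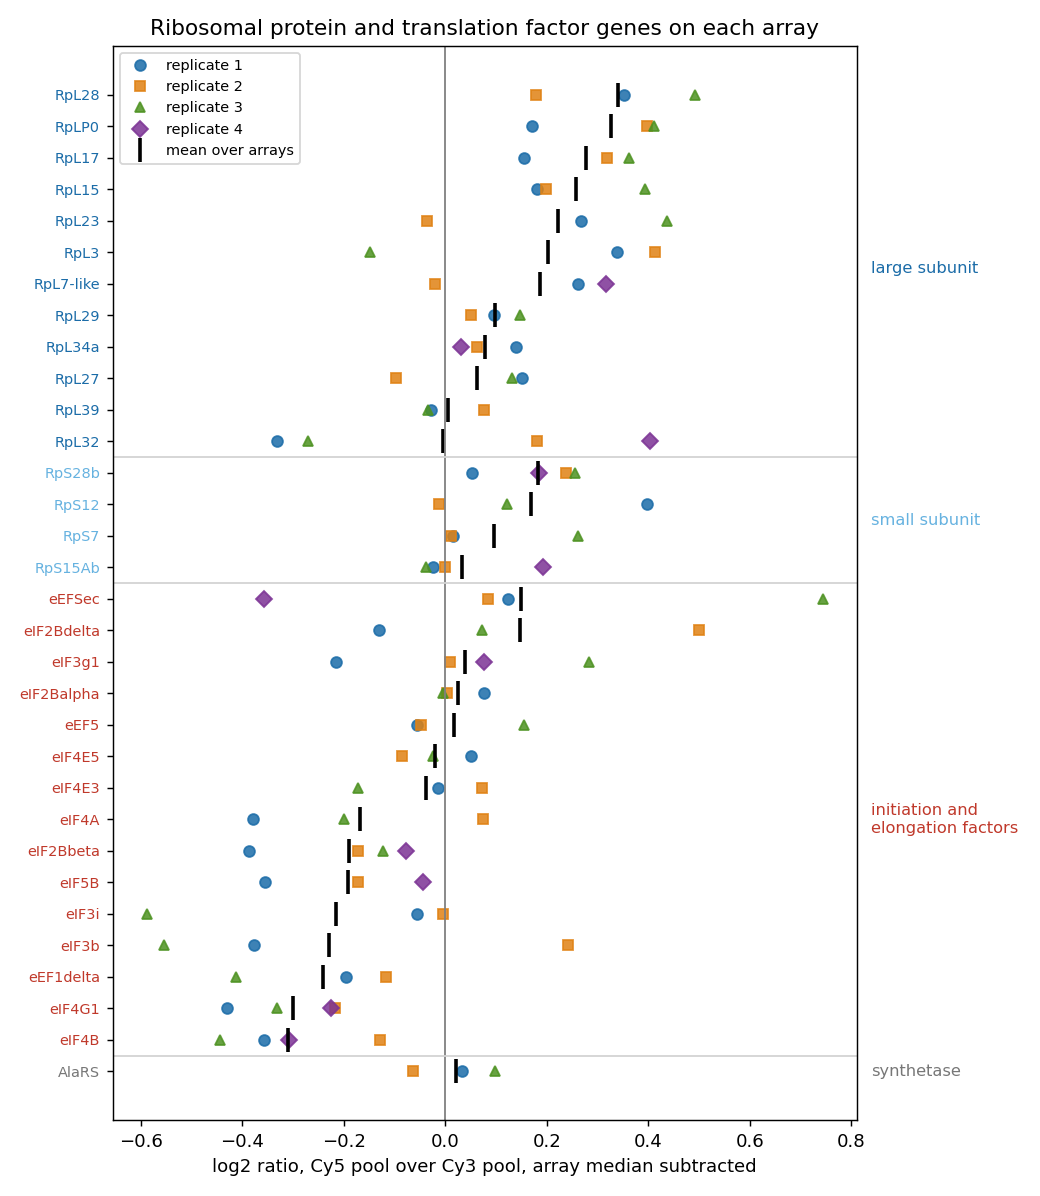
Log2 ratio of each of the 32 members (rows, grouped by class) on each array (coloured symbols) with its mean (black bar), after subtraction of the array median. Most large subunit genes lie right of 0 and most factors left of it, and RpL32, eEFSec, eIF3b and eIF2Bdelta have arrays on both sides far from 0.

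In the large subunit the highest was RpL28, at 0.35, 0.18 and 0.49 on replicates 1 to 3, with no value on replicate 4. Its mean was 0.34 ± 0.16 (SD, n = 3, limma adjusted p = 0.101), at percentile 95.4 of all genes. RpLP0, the scaffold of the ribosomal stalk that engages elongation factors, was at 0.17, 0.40 and 0.41 on the same arrays. Its mean of 0.33 ± 0.14 stood at percentile 94.6 (SD, n = 3, limma adjusted p = 0.102). RpL17 was at 0.16, 0.32 and 0.36, with a mean of 0.28 ± 0.11 (SD, n = 3, limma adjusted p = 0.122). All 3 genes were thus above the array median on each array that measured them, with replicate 2 lowest for RpL28 and replicate 1 lowest for RpLP0 and RpL17.

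RpL15 had a mean of 0.26 ± 0.12 (SD, n = 3) and was also above 0 on each of its arrays. RpL23 was at 0.22 ± 0.24 and RpL7-like, whose yeast relative Rlp7 acts in assembly of the large subunit, at 0.19 ± 0.18 (SD, n = 3 each), both just below 0 on replicate 2. RpL3, a protein close to the peptidyl transferase centre, was at 0.34 and 0.41 on replicates 1 and 2 but at -0.15 on replicate 3, so its 0.20 ± 0.30 (SD, n = 3) is an average over opposite signs. RpL29, with 0.10 ± 0.05, and RpL34a, with 0.08 ± 0.06 (SD, n = 3 each), lay close above the median on every array they had.

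The low end of the large subunit stayed near 0. RpL27 was at 0.15, -0.10 and 0.13 on replicates 1 to 3, averaging 0.06 ± 0.14 (SD, n = 3, limma adjusted p = 0.686). RpL39, a small protein lining the exit tunnel of the nascent chain, was at -0.03, 0.08 and -0.03, with a mean of 0.01 ± 0.06 (SD, n = 3, limma adjusted p = 0.974). RpL32 had the widest spread of the class, at -0.33, 0.18, -0.27 and 0.40 on replicates 1 to 4, so that its mean was -0.0037 ± 0.36 (SD, n = 4, limma adjusted p = 0.987). Relative to the array medians, this reference transcript was thus low on replicates 1 and 3 and high on replicates 2 and 4. As deposited it was at -0.19, 0.18, -0.19 and -0.29. Its high value on replicate 4 therefore follows from subtracting that array's median of -0.69.

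The small subunit was measured through 4 genes. RpS28b was at 0.05, 0.24, 0.26 and 0.19 on replicates 1 to 4, above 0 on all of them, with a mean of 0.18 ± 0.09 (SD, n = 4, limma adjusted p = 0.158). RpS12, which in flies takes part in the competition between cells of unequal ribosomal protein dose, was at 0.40, -0.01 and 0.12 on replicates 1 to 3, averaging 0.17 ± 0.21 (SD, n = 3, limma adjusted p = 0.329). RpS7 was at 0.01, 0.01 and 0.26, so that its 0.10 ± 0.14 came mostly from replicate 3 (SD, n = 3, limma adjusted p = 0.525). RpS15Ab was at -0.02, -0.001, -0.04 and 0.19, high on replicate 4 alone, where it was at -0.50 as deposited. Its mean was 0.03 ± 0.11 (SD, n = 4, limma adjusted p = 0.801). It was measured by 2 clones, with means of -0.0011 and 0.07.

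The subunits were then compared with each other. The median of the gene means was 0.19 for the large and 0.13 for the small subunit. Array by array, the large subunit median exceeded that of the small subunit by 0.13, 0.12, 0.07 and 0.13, with a mean of 0.11 ± 0.03 (SD, n = 4 arrays). Replicates 1 and 2 measured all 12 large and 4 small subunit genes, and replicate 4 measured 3 large and 2 small subunit genes. On the genes measured by all 4 arrays (RpL32 against RpS28b and RpS15Ab) this difference was -0.35, 0.06, -0.38 and 0.22, with a mean of -0.11 ± 0.30 (SD, n = 4 arrays). Where the median of 49 neighbouring spots was subtracted in place of the array median, the difference of the medians of the gene means was -0.029, against 0.06. The ranges overlapped widely, between -0.0037 and 0.34 for the large subunit and between 0.03 and 0.18 for the small subunit.

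**Figure D3:**
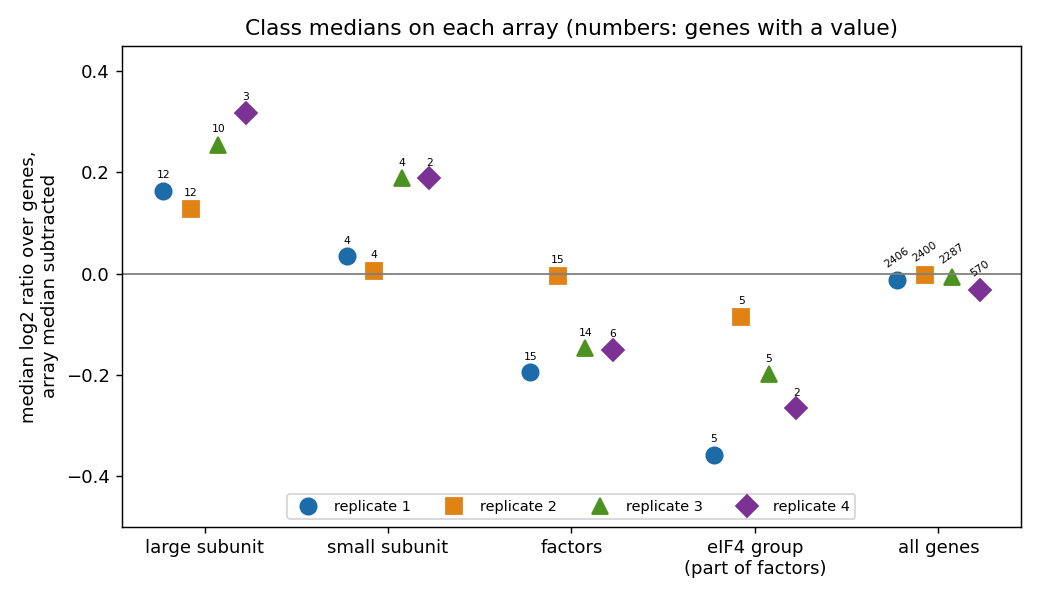
Median log2 ratio over the genes of each class (y axis) on each array (coloured symbols), with all genes at the right and the number of genes measured above each symbol. The large subunit lies above 0 on all 4 arrays, between 0.13 and 0.32, and the factors below it, at -0.004 on replicate 2 and between -0.20 and -0.15 on the others.

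Among initiation factors, the 2 lowest genes were eIF4B and eIF4G1, which prepare the message. All 5 measured genes of the eIF4 group had means below 0, against 51.5% of all genes. In the values as deposited, before the array medians were subtracted, 3 of 5 were below 0, against 47.8% of all genes. The median of the group, -0.17, was close to that of all initiation factors, -0.18, and above that of the eIF3 genes, -0.22. eIF4G1, the scaffold that joins the cap-binding protein to the ribosome, was at -0.43, -0.22, -0.33 and -0.23 on replicates 1 to 4. Its mean was -0.30 ± 0.10 (SD, n = 4, limma adjusted p = 0.0817), at percentile 14 of all genes, and it was below 0 on all 4 arrays. It had 2 clones that differed in size, one at -0.43 ± 0.23 (SD, n = 4) and the other at -0.15 ± 0.01 (SD, n = 3), each below 0 wherever it was measured. Their gap of 0.28 compares with a median gap of 0.20 over the 135 genes with 2 clones. In a one-class SAM run with all 16 sign patterns of the arrays, which is not the study's own run, eIF4G1 was the 1 member called at a false discovery rate of 0.05, in the lower direction, against 6.36% of all genes. In the higher direction SAM called 0 members and 1.66% of all genes. With replicates 2 and 3, 2 and 4, or 3 and 4 turned, eIF4G1 was at -0.027, -0.080 and -0.022 (limma adjusted p between 0.833 and 1). With the complementary pairs turned instead, these values have the opposite sign. Both its size and its sign thus rest on the dyes as labelled.

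eIF4B, which stimulates the helicase of the same complex, was at -0.36, -0.13, -0.44 and -0.31, again below 0 on all 4 arrays. Its mean was -0.31 ± 0.13 (SD, n = 4, limma adjusted p = 0.0844). With the same pairs of arrays turned it was at -0.023, -0.091 and 0.066. eIF4A, the RNA helicase itself, was at -0.38, 0.07 and -0.20 on replicates 1 to 3, so that replicate 2 lay on the other side, with a mean of -0.17 ± 0.23 (SD, n = 3). The cap-binding isoforms eIF4E3 and eIF4E5 lay near 0, at -0.04 ± 0.12 and -0.02 ± 0.07 (SD, n = 3 each). eIF5B, the GTPase that joins the subunits, was at -0.19 ± 0.16 and below 0 on its 3 arrays.

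Subunits of the eIF2B and eIF3 complexes stood on both sides of 0. Of the eIF2B subunits, eIF2Bbeta was at -0.39, -0.17, -0.12 and -0.08 on replicates 1 to 4, all below 0, with a mean of -0.19 ± 0.14 (SD, n = 4, limma adjusted p = 0.168). eIF2Bdelta was at -0.13, 0.50 and 0.07 on replicates 1 to 3, so that its 0.15 ± 0.32 (SD, n = 3, limma adjusted p = 0.472) came from replicate 2. eIF2Balpha was at 0.03 ± 0.04 (SD, n = 3).

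Of the eIF3 subunits, eIF3b, a core subunit, was at -0.38, 0.24 and -0.55 on replicates 1 to 3, averaging -0.23 ± 0.42 (SD, n = 3, limma adjusted p = 0.354). eIF3i was at -0.06, -0.004 and -0.59, so that replicate 3 alone set its mean of -0.22 ± 0.32 (SD, n = 3). eIF3g1 was at -0.22, 0.01, 0.28 and 0.08 on replicates 1 to 4, averaging 0.04 ± 0.21 (SD, n = 4, limma adjusted p = 0.804). On replicates 1 to 3, eIF3b and eIF3i were both highest on replicate 2 and lowest on replicate 3. eIF3g1 was highest on replicate 3, so the 3 subunits had no common order.

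Elongation factors were also split. eEF1delta, an exchange factor that recharges eEF1A, was at -0.20, -0.12 and -0.41 on replicates 1 to 3, below 0 on each, with a mean of -0.24 ± 0.15 (SD, n = 3, limma adjusted p = 0.162). eEF5, formerly eIF5A, which helps the ribosome through runs of proline, was at 0.02 ± 0.12 (SD, n = 3). eEFSec, which delivers selenocysteine and is not part of general elongation, had the highest mean and the widest spread of all factors. It was at 0.12, 0.09, 0.74 and -0.36 on replicates 1 to 4, averaging 0.15 ± 0.45 (SD, n = 4, limma adjusted p = 0.532), so that its highest and lowest arrays had opposite signs. Scaled to its neighbouring spots it was at 0.02 ± 0.26 (SD, n = 4).

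The ribosomal protein and factor classes were set against each other on each array. The median of ribosomal protein genes exceeded that of factors by 0.35, 0.07, 0.35 and 0.34 on replicates 1 to 4, averaging 0.28 ± 0.14 (SD, n = 4 arrays). The difference was positive on 4 of 4 arrays and small on replicate 2. On the genes measured by all 4 arrays (3 ribosomal protein genes and 5 factors) it was 0.33, 0.31, 0.09 and 0.42, so that here replicate 3 was the lowest. Against the eIF4 group alone the difference was 0.51, 0.16, 0.40 and 0.46. Of the gene means, 9 of 16 ribosomal protein genes lay above the highest factor gene, eEFSec, which stood at percentile 74.6 of all genes. Below the lowest ribosomal protein gene, RpL32, lay 10 of 15 factor genes. RpL32 stood at percentile 50.8, so that 50.8% of all genes also lay at or below it. Above the ribosomal protein median lay 0 of 15 factors. Above the array median on every array with a value were 8 of 16 ribosomal protein genes, against 24.1% of all genes, and 0 of 15 factors. Below it on every such array were 0 of 16 ribosomal protein genes and 6 of 15 factors, against 25.8% of all genes. Since 2 unnamed slides were dye-swapped, pairs of arrays were also turned in sign. With replicates 2 and 3 turned, the difference of the medians of gene means was -0.0022, and with replicates 3 and 4 turned it was 0.0018, against 0.34 as labelled. It was 0.14 with replicates 2 and 4 turned, 0.20 without replicate 1 and 0.19 without replicate 3. With the complementary pairs turned instead, the values of the turned pairs have the opposite sign. The order of the classes thus rests on the dyes as labelled.

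**Figure D4:**
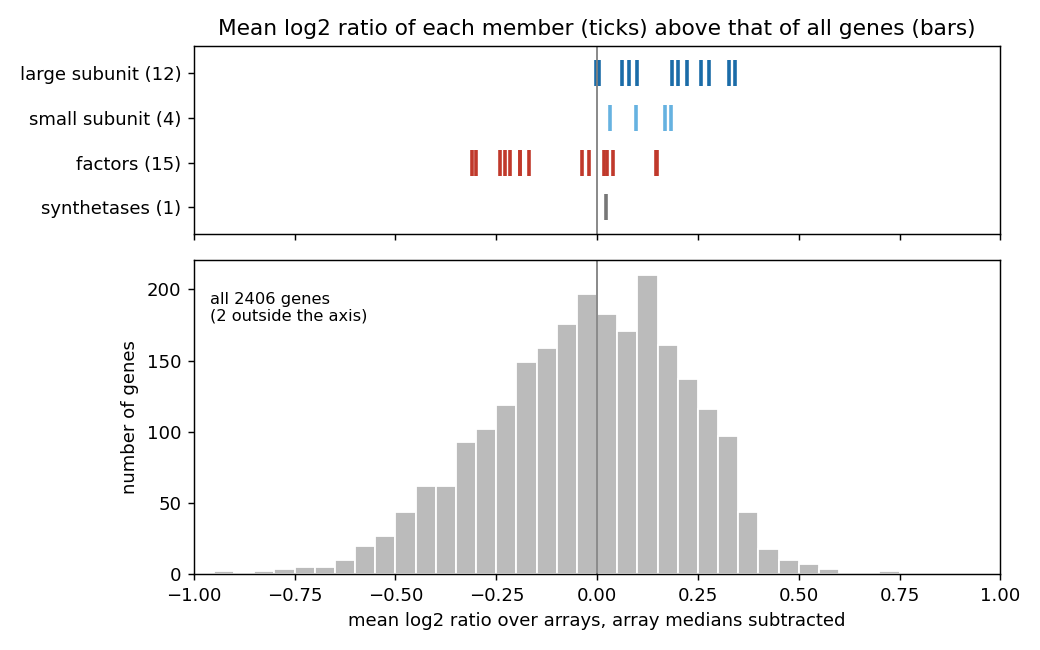
Mean log2 ratio over the arrays for each member (ticks, upper panel, one row per class with its number of genes) and for all 2406 genes (histogram, lower panel, number of genes per bin, 2 genes outside the axis), on the same x axis. Members lie within -0.31 to 0.34, inside the bulk of all genes, with ribosomal protein genes to the right of most factors.

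The spread of the members between arrays was then set beside that of all genes, with no test. The median SD over arrays was 0.14 for members and 0.17 for all genes, and the median root mean square log2 ratio was 0.24 and 0.25. Duplicate spots of the members' clones differed by a median of 0.115, the same as for all annotated clones (0.115). Across members, replicates 1 and 3 correlated with r = 0.647 (29 genes), against 0.737 over all genes (2287), and replicates 1 and 2 with r = 0.321 (32 genes), against 0.444 (2400). Within ribosomal proteins r was 0.526 for replicates 1 and 3 (14 genes) and 0.039 for replicates 1 and 2 (16 genes). These correlations are across genes of the same slides and describe shared departures only.

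Values of neighbouring spots in the table moved with part of the ribosomal protein values. The neighbours of RpL28 had local medians of 0.35 and 0.38 on replicates 1 and 3, above the array medians of 0.14 and 0.08, and scaled to its 49 neighbouring spots instead, its mean was 0.15 ± 0.03 (SD, n = 3), against 0.34. RpLP0 was then at 0.16 ± 0.16 and RpL17 at 0.15 ± 0.11 (SD, n = 3 each), whereas RpL15 stayed at 0.23 ± 0.06 and RpS28b stood at 0.43 ± 0.17 (SD, n = 4), the highest member. eIF4B was then at -0.40 ± 0.20 and eIF4G1 at -0.32 ± 0.11 (SD, n = 4 each), both as low as before, while eIF4A was at 0.05. RpL39, RpS7 and eEF5 were below 0 under this step, at -0.17, -0.10 and -0.25, and eIF3g1 was at 0.32. The class counts changed little. Above 0 were 14 of 16 ribosomal protein genes, against 47.5% of all genes, and below 0 were 10 of 15 factors, against 52.5%. The class medians were 0.11 and -0.13. No member passed under this scaling either, where limma called 2 of 2406 genes.

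**Figure D5:**
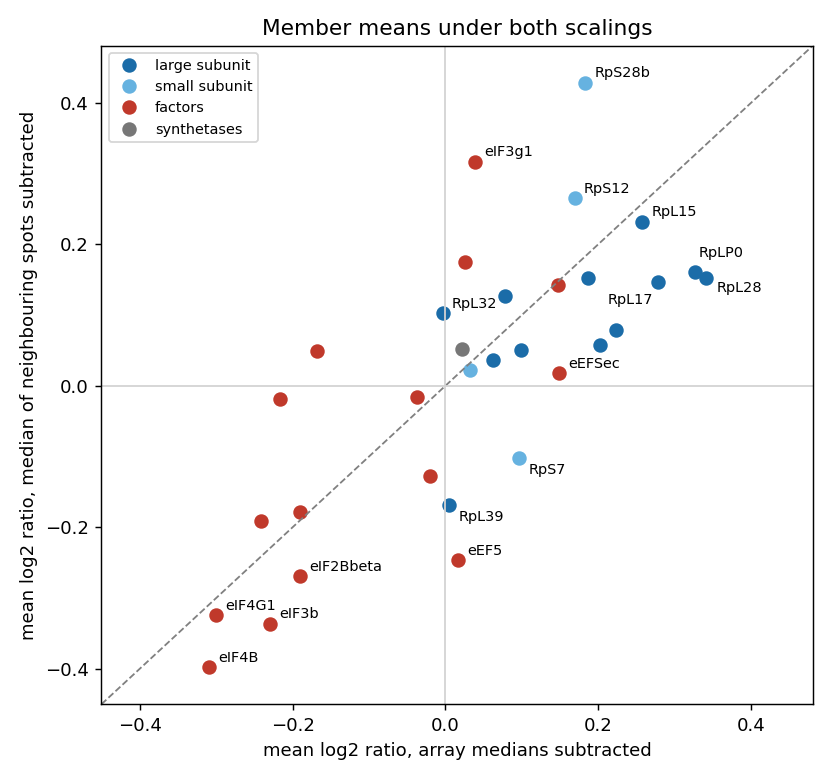
Mean log2 ratio of each member with the array median subtracted (x axis) against the mean with the median of 49 neighbouring spots subtracted (y axis), coloured by class, with the line of equal values dashed. RpL28, RpLP0 and RpL17 lie below the line at about 0.15, while eIF4B, eIF4G1 and eIF2Bbeta stay between -0.40 and -0.27.

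Other genes of the pathway were examined through lists by function, and none of the listed genes measured passed in limma. Ribosome assembly genes were above 0 for 5 of 5 measured of 23 with a clone, against 48.5% of all genes. Their median was 0.30, and 0.20 when scaled to neighbouring spots. The highest of these were CG12325, at 0.44 ± 0.19, and nclb, which acts in ribosomal RNA synthesis, at 0.43 ± 0.18 (SD, n = 3 each), and the lowest were the nucleolar genes Nopp140 and Non1, at 0.08 and 0.09. Genes for handling the nascent chain were above 0 for 5 of 5, against the same 48.5% of all genes. They ranged from Sec61gamma, a subunit of the protein channel of the endoplasmic reticulum, at 0.04 to Nacalpha, which binds emerging chains, at 0.22. Their median was 0.14, but -0.0255 when scaled to neighbouring spots. Rack1, which is among these genes, is a scaffold protein of the small subunit that the symbol rule does not take in. It was at 0.09 ± 0.09 (SD, n = 3).

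Genes listed under translation control were below 0 for 4 of 5 measured, against 51.5% of all genes. Their median was -0.05, and -0.02 when scaled to neighbouring spots. The lowest were orb2, a regulator of stored messages in neurons, at -0.32 ± 0.20, and pAbp, which binds poly(A) tails and eIF4G, at -0.25 ± 0.14 (SD, n = 3 each). Both were below 0 on their 3 arrays. Max, a transcription factor kept in the list, was at -0.03 and bel, an RNA helicase, at 0.10. AIMP1, an accessory protein of the synthetase complex, was at 0.07 ± 0.14 (SD, n = 3). Of the release factors and recycling genes 3 had a clone and 0 had values on at least 3 arrays.

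Ribosomal proteins of mitochondria are the class most like the cytosolic ones in function. Of these, 13 of 20 genes were above 0, against 15 of 16 cytosolic ones and 48.5% of all genes. Their median was 0.11, against 0.18 for the cytosolic ones, and 0.03 against 0.11 when scaled to neighbouring spots. On replicates 1 to 4 the mitochondrial medians were 0.20, 0.02, 0.14 and -0.03, against 0.15, 0.07, 0.20 and 0.19 for cytosolic ribosomal proteins. The lowest were mRpL33 at -0.33 and mRpL37 at -0.26, and the highest mRpL50 at 0.30 and mRpS17 at 0.28, so that the mitochondrial set reached much further below 0 than the lowest cytosolic gene. The respiratory chain genes had a median of -0.03 over 27 genes, with 10 above 0 and 17 below. Proteasome subunits had a median of 0.05 over 12 genes, with 7 above 0 and 5 below.

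Markers of other tissues are given beside these classes, and none of them passed in limma. The 3 measured of 14 gut markers, thetaTry, Mal-A3 and Mal-A2, were all above 0, against 48.5% of all genes. Their list medians were 0.50, 0.10 and 0.25 on replicates 1 to 3. Of 4 neuronal markers Rab3, Gad1 and Sh were below 0 on every array with a value, against 25.8% of all genes, and nSyb above. Medians of the neuronal list were -0.27, -0.14, -0.34 and -0.25 on replicates 1 to 4. The 3 measured glial markers had medians of -0.48, 0.02, -0.29 and -0.06. Scaled to neighbouring spots, the median of the gene means was 0.16 for gut, against 0.30. It was -0.21 for neurons, against -0.24, and -0.11 for glia, against -0.26. The 5 photoreceptor markers had medians of -0.11, 0.18, -0.16 and 0.06, on both sides of 0. The 5 measured fat body markers had medians of -0.05, 0.13, 0.09 and 0.51, with the yolk protein gene Yp3 highest at 1.30 ± 0.72 (SD, n = 4). The 3 muscle markers had medians of -0.11, 0.22 and -0.29 on replicates 1 to 3, and the 3 male reproductive markers -0.20, 0.54, 1.57 and -0.31 on replicates 1 to 4. The medians of these 3 lists lay on both sides of 0. The part of these tissues in the ribosomal protein and factor values was not tested.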

How the data were processed

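According to the methods and the labels, the authors scanned the CDMC cDNA slides, quantified spots with GenePix Pro 6.0, ran a ratio-based normalization in Acuity 4.0 and kept spots with under 3% saturated pixels, no bad or absent flag, a regression R2 above 0.6 and a signal-to-noise ratio above 3. The deposited values are log2 ratios of Cy5 over Cy3 after that normalization, without the intensities. Array medians differed, so the median of all clones was subtracted on each array. Adjacent duplicate spots were averaged to 13824 clones (7558 pairs were named by 1 gene, 0 by different genes on the 2 spots), and clones of a gene with values on at least 3 arrays were averaged. Names came from the platform annotation, and 97.9% of 15218 annotated probes matched a RefSeq gene (Release 6 plus ISO1 MT) by Entrez identifier.

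Each of 2406 genes was tested against 0 with limma (3.58.1, R 4.3.3), moderated, two-sided, with Benjamini-Hochberg adjustment over all genes at 0.05. In simulated data of these 2406 genes, 200 were given a change, with noise drawn independently for each array. The test called 47.6% of the changed genes at a log2 change of 0.5, 90.4% at 1 and 98.7% at 2, so small changes are often missed. In the data, replicates 1 and 3 correlated across all genes with r = 0.737, and no dye swap was simulated. These shares therefore need not hold for the arrays here. The methods call the arrays biological replicates from independent sets of vials, and the p-values measure the spread between these 4 arrays, whose number limits the precision. Classes are described by counts and medians beside all genes, with no test. Alternatives were values as deposited, subtraction of the median of 49 neighbouring spots, each array left out, signs of pairs of arrays turned, another summary of clones, other limits on arrays, SAM, and members with -like or -m symbols or RpL32 left out. The comparison of ribosomal proteins with factors under these settings and the omission of RpL32 were chosen after the data were seen. Named in full were the 3 highest and 3 lowest members of each class and all members on 4 arrays. Members and lists were chosen with earlier results of these data known. No sequences are shown, as none were in the tables used here.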

Additional observations from a re-analysis of the deposited data

Results flagged for a closer look

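Of 17 sets of 4 array values examined, 6 held an array that stood apart from the other 3 by Dixon's test, where chance gives about 1 in 20. The sets share arrays and genes and are not independent, so their number cannot be set against that share. RpS15Ab was at 0.19 on replicate 4, against values between -0.04 and -0.001 on the others. The large subunit median minus the small subunit median was 0.066 on replicate 3 and between 0.12 and 0.13 on the others. The ribosomal protein median minus the factor median was 0.074 on replicate 2 and between 0.34 and 0.35 on the others. The remaining 3 sets were the shares of clones with a value on replicate 4, at 16.7% for ribosomal proteins, 18.8% for factors and 8.98% for all annotated clones. What set these arrays apart was not tested.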

How the results depend on the processing

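The number of arrays limits every value here, and replicate 4 reaches few members. No member was called by limma under any setting run, and SAM called 1. The cause of the changes listed was not tested, apart from those that follow from fewer arrays or genes. Genes called numbered 2 with the neighbour median, 193 in SAM (40 higher, 153 lower) and 0 to 215 with each array left out, the highest without replicate 4. Members above the array median on every array with a value, 8 in all, numbered 2, 4 and 2 with the signs of replicates 2 and 3, 2 and 4, and 3 and 4 turned, 1 among genes on all 4 arrays and 9 to 13 with each array left out.

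With the signs of replicates 2 and 3 turned, the medians were -0.025 for all members, -0.029 for ribosomal proteins, -0.029 for the large subunit, -0.0060 for the small subunit and -0.027 for factors. The large subunit minus the small subunit was then -0.023, and ribosomal proteins minus factors -0.0022. With replicates 2 and 4 turned, the medians were -0.0084 for all members, 0.063 for ribosomal proteins, 0.063 for the large subunit, 0.030 for the small subunit and -0.080 for factors, and ribosomal proteins minus factors was 0.14. With replicates 3 and 4 turned, they were -0.0043, -0.0023, 0.0062, -0.041 and -0.0042 in the same order of classes, and ribosomal proteins minus factors was 0.0018. Ribosomal protein genes above 0 then numbered 7, 10 and 7 of 16 for the 3 turned pairs, against 15. Turning the complementary pairs instead gives every median and difference of these turned pairs with the opposite sign.

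The ribosomal protein median was 0.11 with the neighbour median and 0.032 on genes with all 4 arrays, where that of the large subunit, then RpL32 alone, was -0.0037. The large subunit minus the small subunit was 0.11 in the values as deposited, -0.029 with the neighbour median, -0.11 on genes with all 4 arrays and 0.028 to 0.049 with each array left out. With each array left out, the factor median lay between -0.20 and -0.052 and ribosomal proteins minus factors between 0.19 and 0.35, the lowest without replicate 3 and 0.20 without replicate 1.

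Of single genes, RpS15Ab was at -0.086 and eIF3g1 at -0.080 as deposited, and RpL32 at 0.10, RpL39 at -0.17 and RpS7 at -0.10 with the neighbour median. With replicates 2 and 3 turned, AlaRS was at -0.0005, RpL17 at -0.17, RpL28 at -0.11, RpL32 at 0.041, RpL39 at -0.024, RpLP0 at -0.21, RpS28b at -0.064, RpS7 at -0.087, eEF1delta at 0.11, eEFSec at -0.27, eIF2Bdelta at -0.23 and eIF3g1 at -0.11. With replicates 2 and 4 turned, RpL39 was at -0.046, RpS15Ab at -0.063, RpS28b at -0.029, eIF2Bdelta at -0.19 and eIF3g1 at -0.0047. With replicates 3 and 4 turned, AlaRS was at -0.043, RpL27 at -0.025, RpS15Ab at -0.045, RpS28b at -0.037, RpS7 at -0.079, eEF1delta at 0.034, eEFSec at -0.044, eIF3g1 at -0.14 and eIF4B at 0.066. With each array left out, the sign changed for RpL32 (-0.14 to 0.11), RpL39 (-0.031 to 0.025), RpS15Ab (-0.021 to 0.056), AlaRS (-0.015 to 0.065), eIF2Bdelta (-0.029 to 0.29), eIF3g1 (-0.043 to 0.12) and eEFSec (-0.049 to 0.32). No paired analysis was possible because there is 1 group.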
